A study of Mus musculus with 11 samples.

Results

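T cells that have met antigen for a long time commonly lose CD127, the alpha chain of the interleukin-7 receptor, and gain PD-1, an inhibitory receptor, and the question here was whether CD4 and CD8 cells make this shift with the same genes. The state change of a gene was its log2 fold change from CD127+PD-1- to CD127-PD-1+ cells, taken once within CD4 and once within CD8 cells, and the CD8 state change was then subtracted from the CD4 state change. A positive difference therefore means a more positive change in CD4 cells. All 11 labelled libraries of the series entered, 5 in the CD4 arm and 6 in the CD8 arm, and 16365 of 46078 genes passed the filter on low counts and were tested. The CD4 groups were CD4+CD127-PD-1+ with n = 2 and CD4+CD127+PD-1- with n = 3, and the CD8 groups were CD8+CD127-PD-1+ with n = 3 and CD8+CD127+PD-1- with n = 3. Every library came from kidneys of wild-type mice that had been immunised against myeloperoxidase and had then received a globulin against the basement membrane, which starts glomerulonephritis, and kidneys were taken on day 21. Cells of 3 mice were pooled for a sort, so the spread between libraries lies between pools and not between animals, and no healthy kidney is among these groups. The CD4+CD127-PD-1+ group has the fewest libraries because a further sample of it failed quality control per the labels.

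As background, CD127 marks naive and memory T cells that live on interleukin-7, and it falls when cells are driven by antigen. PD-1 is raised by stimulation through the T cell receptor and restrains it. Many such cells also carry CD39, encoded by Entpd1, which breaks down extracellular ATP to AMP, and CD73, encoded by Nt5e, which turns AMP into adenosine, a signal that dampens T cells. Regulatory and follicular helper CD4 cells and naive CD8 cells are known carriers of CD73 in the mouse.

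The sort genes followed the labels, which checks the samples and is no finding. Il7r (ENSMUSG00000003882), which encodes CD127, measured 15.5 and 27.2 CPM (counts scaled to a fixed library total) in CD4+CD127-PD-1+ libraries and 13.8 to 17.5 CPM in CD8+CD127-PD-1+ libraries. It measured 329 to 455 CPM in the CD127+PD-1- libraries. Cd4 lay between 503 and 680 CPM in CD4 libraries and between 1.19 and 9.71 CPM in CD8 libraries, and Cd8a between 470 and 754 CPM in CD8 libraries and at most 1.82 CPM in CD4 libraries. Between 10.6 M and 16.1 M reads were counted in a library. Mitochondrial genes took 38.5% to 44.8% of counts in CD8+CD127-PD-1+ libraries and 30% to 33.8% in all others, a gap that moves with the CD8 arm. CPM were computed with these genes included, and the result for Nt5e below was as large with mitochondrial genes taken out (log2 difference 1.95).

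Nt5e, which encodes the adenosine-forming enzyme CD73 (ENSMUSG00000032420, chromosome 9, 88327197 to 88372092, GRCm38), was the only gene whose state change differed between the lineages past the threshold. It fell in CD8 cells and did not pass the test in CD4 cells. CD8+CD127-PD-1+ libraries measured 19.8, 15.7 and 17.6 CPM, against 73.9, 83.2 and 63.8 CPM in CD8+CD127+PD-1- libraries. CD4+CD127-PD-1+ libraries measured 62.3 and 69.0 CPM, against 63.2, 63.6 and 86.1 CPM in CD4+CD127+PD-1- libraries. The CD8 groups did not overlap, the CD4 groups did, and all 3 low libraries were CD8+CD127-PD-1+. The log2 state change was -2.06 in CD8 cells (SE 0.16, adjusted p = 3.2e-05) and -0.11 in CD4 cells (SE 0.17, adjusted p = 0.741). The difference between them was 1.94 (SE 0.23, 95% interval 1.44 to 2.45, adjusted p = 0.0406 by edgeR's quasi-likelihood test with Benjamini-Hochberg adjustment over all genes). CD127+PD-1- cells of both lineages held similar levels, 71.0 ± 13.1 CPM in CD4 and 73.6 ± 9.7 CPM in CD8 cells (SD, n = 3 each). Foxp3, the factor that defines regulatory T cells, a known CD73 carrier, measured 63.2 and 68.8 CPM in CD4+CD127-PD-1+ and 51.2 to 96.2 CPM in CD4+CD127+PD-1- libraries, and 2.43 CPM or less in CD8 libraries. Its part in the level of Nt5e was not tested.

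The size of the Nt5e difference held across settings while its call did not. The log2 difference lay between 1.85 and 2.11 when each library was left out in turn, but the call was kept in 4 of these 11 fits. It was also lost with a replicate block, by title number (1.97, adjusted p = 0.101) or by description number (1.95, 0.234). Adjusted p was 0.18 without CD4+CD127-PD-1+ replicate 2, 0.121 or 0.228 without replicate 1 or 2 of CD4+CD127+PD-1-, 0.136 or 0.215 without replicate 2 or 3 of CD8+CD127-PD-1+, and 0.18 or 0.146 without replicate 1 or 2 of CD8+CD127+PD-1-. Across all 16365 genes edgeR called 1 gene with a positive difference (0.00611%) and 0 with a negative one (0%), with 393 (2.4%) and 504 (3.08%) at an unadjusted p below 0.05, 897 together (5.48%). DESeq2 called 20 and 40, limma-voom 1 and 0, and edgeR without a filter on low counts 27 and 58, with Nt5e called in each. The median standard error of a difference was 0.40 on the log2 scale, so a gene without a call is not shown to change alike in both lineages, and intervals are given for that purpose below.

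**Figure D1:**
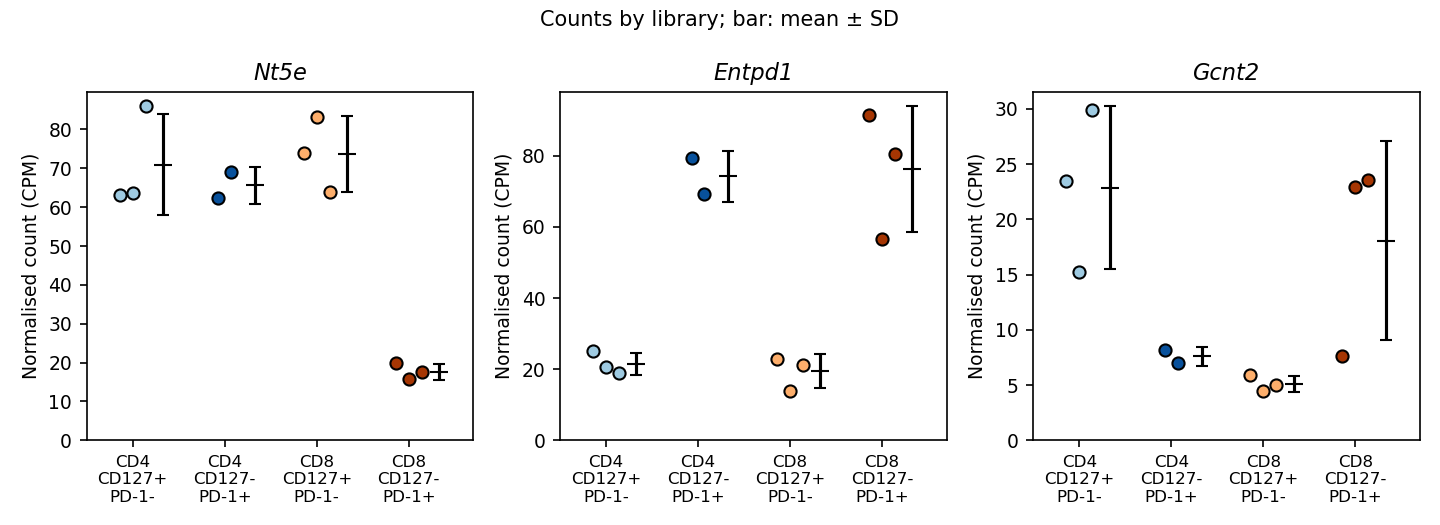
Normalised counts (CPM) of Nt5e, Entpd1 and Gcnt2 in each library, 1 panel a gene, with 1 point a library and the mean ± SD of each group beside its points. Nt5e is low in CD8+CD127-PD-1+ libraries alone (15.7 to 19.8 CPM), Entpd1 is high in CD127-PD-1+ libraries of both lineages (56.7 to 91.4 CPM), and Gcnt2 is highest in CD4+CD127+PD-1- libraries (15.2 to 29.9 CPM) and in a pair of CD8+CD127-PD-1+ libraries (22.9 and 23.6 CPM).

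Among the 12 other tested genes of the ATP and adenosine route edgeR, DESeq2 and limma-voom called 0 differences between the lineages, and 1, the scarce receptor gene Adora2b (-3.07), had an unadjusted p below 0.05. Entpd1, the enzyme upstream of CD73 (ENSMUSG00000048120, chromosome 19, 40612366 to 40741602), rose in both lineages. It measured 79.3 and 69.2 CPM in CD4+CD127-PD-1+ libraries against 25, 20.7 and 18.9 CPM in CD4+CD127+PD-1- libraries. In CD8 cells it measured 91.4, 56.7 and 80.4 CPM against 23, 14 and 21.3 CPM. Neither pair of groups overlapped, and the state changes were 1.79 (adjusted p = 0.00085) and 1.97 (adjusted p = 0.000205), with a difference of -0.18 (95% interval -0.87 to 0.51). CD127-PD-1+ cells of both lineages thus held 74.3 and 76.2 CPM of Entpd1 on average, but 65.7 and 17.7 CPM of Nt5e.

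P2rx7, an ATP-gated channel, also rose in both lineages, by 1.03 in CD4 and 0.87 in CD8 cells (difference 0.15, 95% interval -0.40 to 0.71). With all libraries edgeR called in the CD4 arm alone Adora2a, the main adenosine receptor of T cells (0.92 in CD4, 0.45 in CD8), Enpp1, an ectoenzyme that cuts ATP (0.66 and 0.36), and Adk, which phosphorylates adenosine (-1.29 and -0.73). Each had the same sign in the other lineage, and the intervals of their differences spanned 0 (-0.30 to 1.24, -0.15 to 0.74 and -1.31 to 0.19). The Adora2a call was lost in 7 of 11 fits that left out a library (adjusted p 0.0517 to 0.139). Without CD4+CD127-PD-1+ replicate 1 the CD4 calls of Enpp1 (0.112), Adk (0.0741) and P2rx7 (0.0541) were lost, and without CD4+CD127+PD-1- replicate 3 that of Enpp1 (0.0514), which was also lost with no filter on low counts (0.0512). Adk was called in the CD8 arm too by DESeq2 (0.0332), with a stricter filter (0.0478), without mitochondrial genes (0.0446) and without CD8+CD127+PD-1- replicate 3 (0.0289), and Adora2a without that library (0.0364). Of the 13 genes of this list 4 were higher and 1 lower in the CD4 arm, and 2 were higher and 1 lower in the CD8 arm, where 6.81% and 4.87% of all tested genes were called higher and lower in CD4 and 9.05% and 6.56% in CD8 cells. The list's median state change was 0.30 in CD4 and 0.36 in CD8 cells, against 0.02 and 0.01 over all tested genes, and its median difference was 0.06 against 0.01.

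Across the transcriptome the state change of CD4 libraries resembled that of CD8 libraries. The CD4 arm called 1115 rises and 797 falls, and the CD8 arm 1481 and 1074. Both arms called 1278 genes in the same direction (7.81%). These were 744 genes higher (4.55%, 66.7% of the CD4 and 50.2% of the CD8 calls) and 534 lower (3.26%, 67% of the CD4 and 49.7% of the CD8 calls). The median change of the jointly higher genes was 2.16 in CD4 and 2.13 in CD8 cells, and that of the jointly lower genes was -1.12 in each. Of the 633 genes called in the CD4 arm alone, 600 (94.8%) had the same sign in CD8 cells, and of the 1276 called in the CD8 arm alone, 1178 (92.3%) had the same sign in CD4 cells. The share with the same sign over all tested genes was not counted. Among those 633 and 1276 genes the difference itself had an unadjusted p below 0.05 (edgeR) for 171 and 262, a larger share than the 5.48% of all tested genes. Choosing genes called in a single arm itself favours such p values. Most calls made in a single arm still came without a low p for the difference. Over all tested genes the state changes correlated with Pearson's r = 0.718 and Spearman's rho = 0.624. The arms share no library, genes are not independent replicates, and the correlation is a description. Genes of other cell types are among those counted, with medians of 5.20 in CD4 and 5.03 in CD8 cells for the macrophage list. For the plasmacytoid dendritic cell list the medians were -2.62 and -1.65. Their part in this likeness was not tested.

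**Figure D2:**
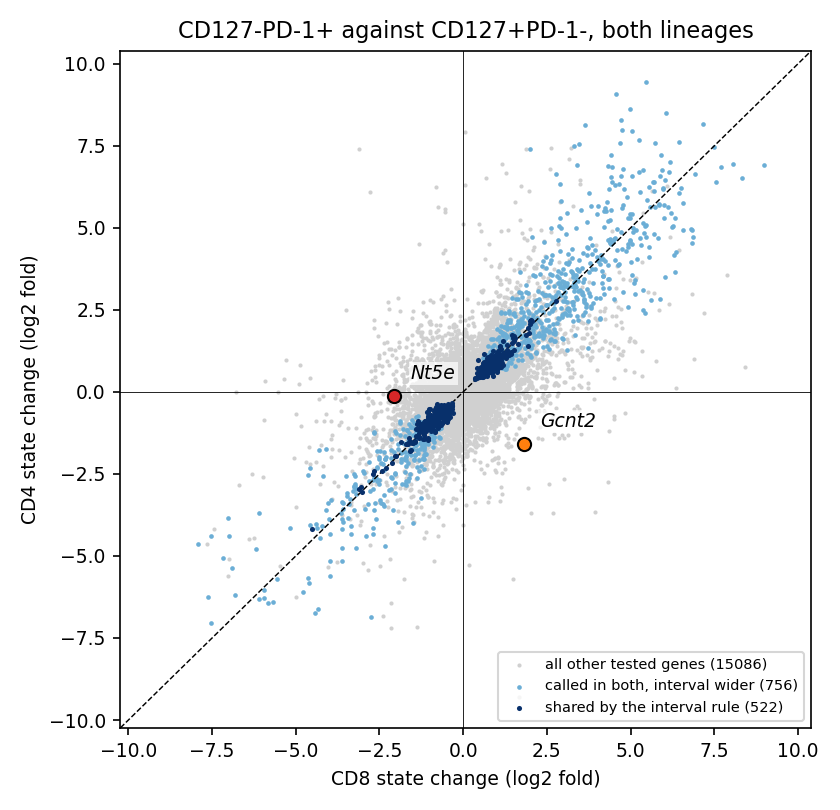
Log2 state change in CD8 cells (horizontal) against CD4 cells (vertical) for 16365 tested genes, with the dashed line marking equal change. The 522 shared genes lie near the line by the rule that chose them. Nt5e sits at -2.06 and -0.11, and Gcnt2 is the only gene called in opposite directions.

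To separate changes shown to be alike from those merely not shown to differ, a gene was counted as shared when both arms called it in the same direction and the 95% interval of the difference stayed within 2-fold. This held for 522 genes (3.19%), 214 higher (1.31%) and 308 lower (1.88%). The interval stayed within 2-fold for 41.4% of all tested genes, for 82.5% of those whose average log2 CPM reached 4 and for 17.2% of the rest, so the shared class holds mainly abundant genes. The count rested on single libraries. Without CD4+CD127-PD-1+ replicate 1 or 2 it was 182 or 279, and without CD4+CD127+PD-1- replicate 1 or 2 it was 327 or 295. Leaving out CD8+CD127-PD-1+ replicate 2 or 3 gave 341 or 343, and CD8+CD127+PD-1- replicate 2 gave 341. At a bound of 1.5-fold, chosen after the data were seen, it was 64 higher and 153 lower.

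The largest shared falls after Il7r, the sorted receptor's own gene (-4.17 in CD4 and -4.51 in CD8 cells), were those of Lef1 and Satb1. Lef1, a transcription factor of naive T cells that partners TCF-1, measured 55.5 and 51.1 CPM against 199 to 406 CPM in CD4 cells and 46.1 to 50.6 against 226 to 409 CPM in CD8 cells. It fell by 2.49 and 2.69 on the log2 scale (difference 0.20, 95% interval -0.60 to 0.99). Satb1, a chromatin organiser, measured 203 and 239 CPM against 1130, 1250 and 1130 CPM in CD4 cells, and 103, 166 and 178 CPM against 838, 1080 and 894 CPM in CD8 cells. It fell by 2.41 and 2.65 (difference 0.24, -0.34 to 0.82). Tcf7, which encodes TCF-1, was the most tightly bounded of these, falling by 1.95 and 2.05 (difference 0.10, -0.35 to 0.55). In none of these genes did the groups of either lineage overlap. They were chosen for large called falls, which favours such a gap, and its share over all tested genes was not counted.

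Pik3ip1, a membrane inhibitor of phosphoinositide 3-kinase, measured 8.2 and 7.2 CPM against 29.1 to 47.6 CPM in CD4 cells and 9.19 to 11 against 40.1 to 57.4 CPM in CD8 cells, with state changes of -2.33 and -2.32 (difference -0.01, 95% interval -0.67 to 0.65). Cmah, the enzyme that makes the sialic acid Neu5Gc in mice, changed by -1.94 and -2.00 (difference 0.06, -0.64 to 0.76). Als2cl changed by -1.80 and -1.60 (difference -0.20, -0.92 to 0.53), and Tnfrsf26, a decoy receptor of the TNF family, by -1.53 and -1.87 (difference 0.34, -0.29 to 0.98).

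Among the largest shared rises, Ctsc encodes a lysosomal protease, Ehd4 a protein of endosome recycling, Spred1 an inhibitor of Ras signalling, and Trps1, Nfxl1 and Pou2f2 nuclear factors. Ctsc measured 431 and 268 CPM against 71.3 to 84.0 CPM in CD4 cells and 310, 468 and 535 CPM against 106 to 118 CPM in CD8 cells (state changes 2.15 and 1.99, difference 0.16, 95% interval -0.50 to 0.82). Ehd4 rose by 2.15 and 2.06 and Spred1 by 2.07 and 2.00, with intervals of the difference of -0.69 to 0.87 and -0.77 to 0.91. Nfxl1 rose by 1.70 and 1.53 and Pou2f2 by 1.64 and 1.55. Trps1 rose in both lineages but more in CD8 cells, from 56.9 to 61.7 up to 174 and 134 CPM in CD4 cells (1.39) and from 39.5 to 45.7 up to 157 to 167 CPM in CD8 cells (1.94). Its difference of -0.55 (95% interval -0.92 to -0.19, unadjusted p = 0.00663, adjusted p = 0.705) was within the bound without spanning 0.

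Macrophage RNA rose beside these genes in both lineages. The summed level of 22 macrophage genes was 4210 and 2070 CPM in CD4+CD127-PD-1+ libraries and 2030, 3950 and 4160 CPM in CD8+CD127-PD-1+ libraries in replicate order, against 274 to 521 CPM in the CD127+PD-1- libraries. Ehd4, Ctsc, Spred1, Nfxl1 and Pou2f2 ranked the libraries of both CD127-PD-1+ groups in the same order as that sum. Entpd1 and Trps1 did so in CD4 cells only, with Trps1 at 159 and 157 CPM in CD8+CD127-PD-1+ replicates 1 and 2. An order of 2 or 3 libraries can match by chance, and the share of all tested genes that match was not counted. The part of macrophage RNA in these changes was not tested.

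**Figure D3:**
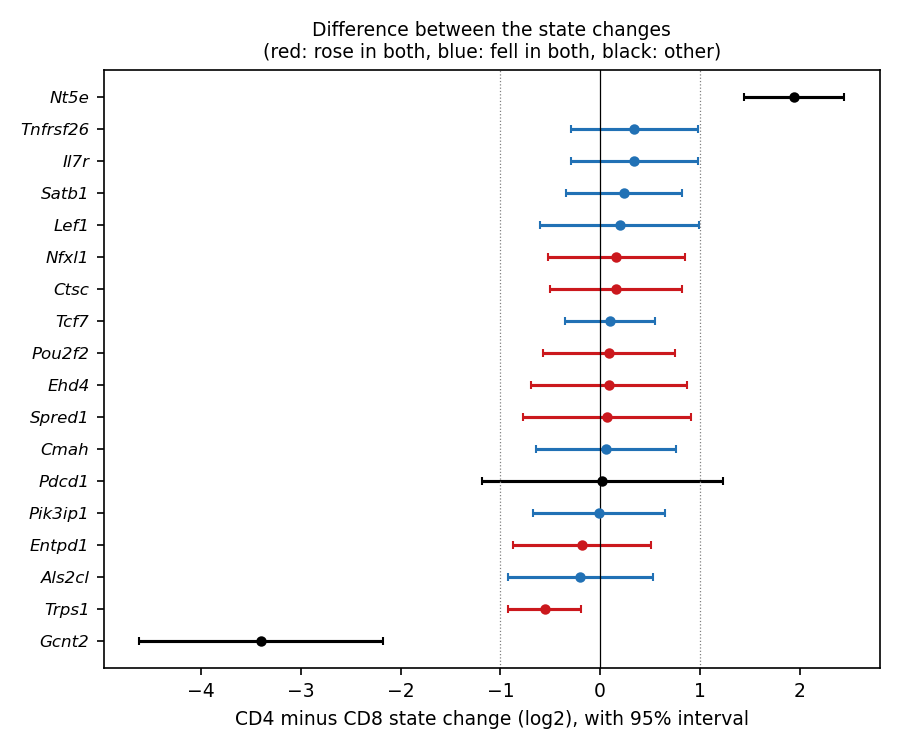
Difference between the CD4 and the CD8 state change (log2) with its 95% interval for the named shared genes, Pdcd1, Nt5e and Gcnt2; dotted lines mark the 2-fold bound. The shared genes lie within the bound by the rule that chose them. Nt5e (1.94) lies above it and Gcnt2 (-3.40) below it, and the interval of Pdcd1 (-1.18 to 1.23) is too wide to call it shared.

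Gcnt2, which encodes a glycosyltransferase that branches poly-lactosamine chains on glycoproteins (ENSMUSG00000021360, chromosome 13, 40859754 to 40960892), was the only gene called in opposite directions by the filtered edgeR fit (0.00611% of tested genes), against 9 genes with no filter and 7 by DESeq2. In CD4 cells it fell, from 23.5, 15.2 and 29.9 CPM in CD127+PD-1- libraries to 8.20 and 7.01 CPM in CD127-PD-1+ libraries (-1.59, adjusted p = 0.0344). In CD8 cells it rose, from 5.93, 4.47 and 4.99 CPM to 7.67, 22.9 and 23.6 CPM (1.81, adjusted p = 0.00804). Neither pair of groups overlapped, but CD8+CD127-PD-1+ replicate 1 lay close to the CD127+PD-1- libraries. The difference of -3.40 (95% interval -4.62 to -2.18) was larger than that of Nt5e but more variable, and it did not pass the test (adjusted p = 0.207). It was called without CD8+CD127-PD-1+ replicate 1 (-3.76, adjusted p = 0.00896), by DESeq2 (adjusted p = 1.04e-05) and by edgeR with no filter on low counts (-3.39, adjusted p = 3.15e-05). The CD4 fall was not called by limma-voom (adjusted p = 0.0667), nor without CD4+CD127-PD-1+ replicate 1 (0.116) or 2 (0.166) or CD4+CD127+PD-1- replicate 1 (0.0826) or 3 (0.0981). Gcnt2 ranked the CD127-PD-1+ libraries of each lineage in the order of the macrophage sum, which so few libraries can do by chance. The 10 tested neutrophil genes summed to 49.0, 259 and 332 CPM in CD8+CD127-PD-1+ replicates 1, 2 and 3. The part of macrophage and neutrophil RNA in the Gcnt2 levels was not tested.

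Upstream sequences are shown for a gene of each class, a shared fall, a shared rise and the opposite change, because members that move together invite a look at their start sites. Each is the 250 bases upstream of a RefSeq transcript start (GRCm38.p6, gene strand, 5′ to 3′) where no annotated exon overlaps, with capitals marking matches on either strand to TCF/LEF letters (CTTTGA) or STAT letters (TTCNNNGAA). Cmah lies at chr13:24327154-24327403, Ctsc at chr7:88277835-88278084, and the Gcnt2 window, before an internal start of the gene, at chr13:40886508-40886757. Each printed window holds a match, unlike most windows of the shared classes. Windows of Tcf7, Spred1 and Entpd1 without an overlapping exon, a window of Lef1 and a further Cmah window (chr13:24414872-24415121) held none of these letters. Another Lef1 window without an overlapping exon (chr3:131156044-131156293), not printed, held 2 TCF/LEF matches.
Cmah: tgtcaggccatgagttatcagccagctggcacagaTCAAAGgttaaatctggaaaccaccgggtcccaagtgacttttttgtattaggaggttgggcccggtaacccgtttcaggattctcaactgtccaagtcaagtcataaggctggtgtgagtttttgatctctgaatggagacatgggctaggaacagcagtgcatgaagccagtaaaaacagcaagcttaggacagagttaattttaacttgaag
Ctsc: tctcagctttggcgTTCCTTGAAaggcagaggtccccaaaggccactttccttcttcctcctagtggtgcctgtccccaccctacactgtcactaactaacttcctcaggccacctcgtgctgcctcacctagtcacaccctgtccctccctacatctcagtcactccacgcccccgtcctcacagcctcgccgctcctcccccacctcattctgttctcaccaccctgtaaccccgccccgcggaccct
Gcnt2: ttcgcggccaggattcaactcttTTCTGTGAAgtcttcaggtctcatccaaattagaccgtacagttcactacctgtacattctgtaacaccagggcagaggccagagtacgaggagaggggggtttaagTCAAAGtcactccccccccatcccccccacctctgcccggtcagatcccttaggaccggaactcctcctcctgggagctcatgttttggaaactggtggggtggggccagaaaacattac

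The letters did not set the classes apart by more than a few points. TCF/LEF letters were in 7.08% of the 212 windows of shared risers and 6.97% of the 287 windows of shared fallers, against 10.9% of the windows of all tested genes and 13.8% of all windows. STAT letters were in 7.08% and 6.27%, against 6.19% and 7.01%. AP-1 letters (TGANTCA) were in 7.55% and 3.14%, against 4.48% and 6.75%, and FOXO letters (GTAAACA) in 2.36% and 2.09%, against 2.22% and 3.16%. RefSeq windows were matched by symbol for 152 of 214 shared risers and 211 of 308 shared fallers. A match is a run of letters and not a shown binding site.

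Medians of the T cell gene lists are a description and do not show that a list changed alike in both lineages. Of 27 lists, 22 had a median state change of the same sign in both arms, and 20 had a median difference between -0.25 and 0.25. In the naive and memory list 18 of 22 genes were called lower in both arms, against 3.26% of all tested genes, and 0 higher in either (edgeR; median -1.93 in CD4 and -1.46 in CD8 cells), with 9 of 22 intervals of the difference within the bound. The homing receptor gene Ccr7, which directs T cells to lymph nodes, fell by 2.49 in CD4 and by 2.05 in CD8 cells. The egress receptor gene S1pr1 fell by 1.91 and 1.45, and Klf2, a factor that maintains it, by 1.34 and 1.40. Leaving out CD4+CD127-PD-1+ replicate 2 reduced the CD4 calls to 13. DESeq2 called 1 difference in this list, that of Ly6c1 (0.0406). Ly6c1, a surface antigen, was called in the CD4 arm alone, at 0.471 and 0.324 CPM against 4.93 to 10.1 CPM in CD4 cells and at 0.672 CPM or less in all CD8 libraries (state changes -4.06 and -0.02, adjusted p of the difference 0.654), and that call was lost without CD4+CD127-PD-1+ replicate 2 (0.0544).

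Genes for ribosomal proteins fell in both lineages, with 12 of 30 called lower in the CD4 arm and 28 in the CD8 arm, all 12 among the 28, and 0 higher in either (4.87% and 6.56% of all tested genes were lower). Their medians were -0.59 and -0.80, and the interval of the difference stayed within 2-fold for 27 of 30. The CD4 calls were 0 without CD4+CD127-PD-1+ replicate 1 and 5 without CD4+CD127+PD-1- replicate 2, and the CD8 calls were 13 without CD8+CD127-PD-1+ replicate 3 and 17 without its replicate 1 or CD8+CD127+PD-1- replicate 1. Of 21 genes of T cell receptor signalling 3 were lower in CD4 and 4 in CD8 cells, by the same shares of all genes, and 15 intervals were within the bound. Txk, a Tec family kinase gene, fell by 1.54 in CD4 and by 1.59 in CD8 cells. All 8 GIMAP genes, small GTPases of lymphocyte survival, were within the bound, as were 11 of 14 genes of the TGF-beta pathway, 12 of 16 of glycolysis and 13 of 18 of oxidative phosphorylation. Many genes of these lists are abundant, and 82.5% of intervals lay within the bound where the average log2 CPM reached 4. The lists of glycolysis and oxidative phosphorylation also hold scarcer genes, such as Pgam1 (2.49 to 6.72 CPM) and Ndufa1 (3.03 to 12.4 CPM). For genes under that level the share was 17.2%.

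Interferon-stimulated genes rose in both lineages, 12 of 20 in each arm and 10 in both, with 0 lower (medians 0.88 and 0.93; 6.81% and 9.05% of all tested genes rose in CD4 and CD8 cells, and 4.55% in both). Without CD4+CD127-PD-1+ replicate 1 the CD4 calls were 3, and without CD4+CD127+PD-1- replicate 1, 2 or 3 they were 6. The CD8 calls were 7 without CD8+CD127-PD-1+ replicate 3 and 7 without CD8+CD127+PD-1- replicate 2. Isg15, a ubiquitin-like antiviral protein, rose by 0.98 and 1.17, and Rtp4 by 1.27 and 1.30. The CD4 call of Isg15 was near the threshold (adjusted p = 0.0467) and was lost in 9 of 11 fits that left out a library (0.0504 to 0.183), and its CD8 call without CD8+CD127-PD-1+ replicate 3 (0.0512) or CD8+CD127+PD-1- replicate 2 (0.0503). Ifitm3, a membrane protein that blocks viral entry, measured 76.1 and 56.5 against 19.6 to 20.4 CPM in CD4 cells and 55.6, 130 and 163 against 8.11 to 15.8 CPM in CD8 cells (1.74 and 3.33, difference -1.59, 95% interval -2.68 to -0.50, adjusted p = 0.752). The Ifitm3 difference was called by edgeR with no filter on low counts (0.0319). Its CD4 call was lost without CD4+CD127-PD-1+ replicate 1 (0.0705). Its lowest CD8+CD127-PD-1+ library was the one with the lowest macrophage sum.

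Cell cycle genes rose in the CD4 arm (20 of 24, median 1.89) while 5 of 24 passed the test in the CD8 arm (median 0.99), where 6.81% and 9.05% of all tested genes rose, and these counts turned on single libraries. The list summed to 1470 and 2610 CPM in CD4+CD127-PD-1+ and 532 to 718 CPM in CD4+CD127+PD-1- libraries. In CD8 cells it summed to 1900, 2350 and 2560 CPM against 795, 692 and 1980 CPM, so CD8+CD127+PD-1- replicate 3 reached the level of the other state. Mki67, a marker of cycling cells, showed the same, at 311, 240 and 851 CPM in CD8+CD127+PD-1- libraries. Without that replicate 21 of 24 genes were called higher in CD8 cells, the CD8 median was 1.65, and the median difference went from 0.86 to 0.27. Without CD4+CD127-PD-1+ replicate 2, conversely, 2 were called in CD4 cells (median 1.34), and without replicate 1 or 2 of CD4+CD127+PD-1- the count was 8 or 10. The CD8 calls were 0 without CD8+CD127-PD-1+ replicate 2 or 3 or CD8+CD127+PD-1- replicate 1 or 2. With all libraries 2 of 24 had an unadjusted p below 0.05 for the difference, and edgeR, DESeq2 and limma-voom each called 0. The number at an unadjusted p below 0.05 was 12 with no filter on low counts, 11 with the title number as a block and 4 by DESeq2. The CD8 calls were 12 by DESeq2 and by limma-voom, 16 with no filter, 15 with the title block and 8 with the description block.

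**Figure D4:**
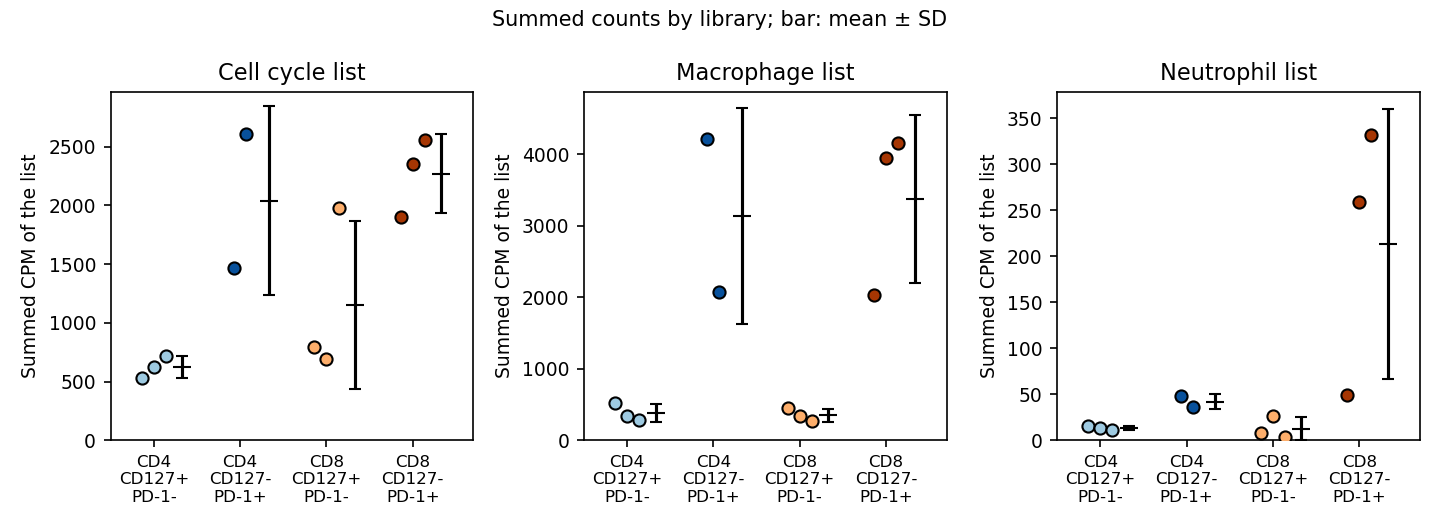
Summed CPM of the cell cycle, macrophage and neutrophil lists, with 1 point a library and the mean ± SD of each group beside its points. CD8+CD127+PD-1- replicate 3 (1980 CPM) stands among the CD127-PD-1+ libraries for the cell cycle list, macrophage sums are high in both CD127-PD-1+ groups, and neutrophil sums are highest in a pair of CD8+CD127-PD-1+ libraries (259 and 332 CPM).

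Medians of the inhibitory receptor genes leaned the other way, at 0.04 in CD4 and 1.02 in CD8 cells with a median difference of -0.47. The list was not shown to differ: edgeR called 0 differences in it. An unadjusted p below 0.05 for the difference was found for 1 of 17 genes, against 5.48% of all tested genes. In CD4 cells 3 of 17 were higher and 1 lower, and in CD8 cells 7 were higher and 1 lower, beside 6.81% and 4.87% of all tested genes in CD4 and 9.05% and 6.56% in CD8 cells. Of these Pdcd1, the sorted gene, Havcr2, which encodes TIM-3, and Lilrb4 were higher in both arms, and Cd96 was lower in both. Ctla4 measured 344 and 589 CPM against 188 to 337 CPM in CD4 cells, without a call (0.79) except with the description number as a block (0.88, adjusted p = 0.0349) or no filter on low counts (0.0125), and 121 to 210 CPM against 55.0 to 85.7 CPM in CD8 cells (1.26, adjusted p = 0.0109). Both its levels in CD127-PD-1+ CD4 cells exceeded all CD8 levels, while the difference of -0.47 (95% interval -1.37 to 0.43) was not shown. Tigit gave 0.74 and 1.46 (difference -0.72, -2.10 to 0.67). Cd244, a receptor of the SLAM family, showed the widest gap, at 11.2 and 4.41 against 5.68 to 11.8 CPM in CD4 cells and 35.9 to 41.6 against 10.5 to 18.1 CPM in CD8 cells (-0.09 and 1.46, difference -1.55, -2.64 to -0.45, adjusted p = 0.752). Without CD8+CD127+PD-1- replicate 2 the CD8 calls numbered 3, with Ctla4 (0.0502), Cd244 (0.0521) and Tigit (0.138) among those lost. Tigit was also lost without CD8+CD127-PD-1+ replicate 1 (0.168), CD8+CD127+PD-1- replicate 1 (0.0948) or CD4+CD127+PD-1- replicate 1 (0.0552). In CD4 cells Lilrb4 was lost without CD4+CD127-PD-1+ replicate 1 (0.139) or CD4+CD127+PD-1- replicate 1 (0.0855) or 2 (0.0806), and Cd96 without any single CD4 library (0.0582 to 0.237), CD8+CD127-PD-1+ replicate 2 (0.0574) or CD8+CD127+PD-1- replicate 1 (0.0531). Cd96 in CD8 cells was lost without CD8+CD127-PD-1+ replicate 2 or 3 or CD8+CD127+PD-1- replicate 2 (0.0544 to 0.0565). The median difference of the list ran from -0.68 to -0.15 over libraries left out.

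Among factors of chronic stimulation 5 of 21 rose in both arms and 1, Id3, fell in both (4.55% and 3.26% of all tested genes). Tox2 rose by 2.73 and 3.61, Nfatc1, a calcium-driven factor, by 1.06 and 0.74, and Rbpj, the effector of Notch, by 1.14 and 1.31. Maf, a factor of helper cells and of interleukin-10 production, had a small unadjusted p for the difference and was chosen after its values were seen. It measured 366 and 332 against 113 to 152 CPM in CD4 cells and 59.7 to 72.3 against 9.70 to 14.6 CPM in CD8 cells. It rose by 1.39 and 2.51, a difference of -1.12 (95% interval -1.63 to -0.60, unadjusted p = 0.000563, adjusted p = 0.354 by edgeR, 0.0162 by DESeq2 and 0.012 by edgeR with no filter on low counts). Il10, a regulatory cytokine, also rose in both, by 1.81 and 2.68, but its CD4 call was lost without CD4+CD127-PD-1+ replicate 2 (0.182) or CD4+CD127+PD-1- replicate 2 (0.0562). Il21, a cytokine that helps B cells, rose in CD4 cells from 1.77 to 2.57 up to 25.9 and 35.6 CPM. In CD8 cells it was scarce, at 0.292 to 1.12 against 0.0733 to 0.346 CPM (difference 2.23, 0.53 to 3.92, adjusted p = 0.823). A CD8 rise of Il21 was called by edgeR without CD8+CD127-PD-1+ replicate 1 (2.02, adjusted p = 0.049) or CD8+CD127+PD-1- replicate 3 (2.45, 0.0469).

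Cytotoxic genes rose in 6 of 19 cases in CD4 and 3 in CD8 cells, with Prf1 called lower in CD4 cells (medians 0.63 and 0.39; 6.81% and 9.05% of all tested genes rose). Prf1, which encodes perforin, measured 1.61 and 0.973 against 2.88 to 6.60 CPM in CD4 cells, and 22.4 to 33.6 against 24.0 to 31.8 CPM in CD8 cells. Its state changes were -2.02 and -0.02 (difference -2.00, 95% interval -3.04 to -0.97, adjusted p = 0.545), and the CD4 call was lost without CD4+CD127-PD-1+ replicate 2 (0.0617). DESeq2 (0.0162) and edgeR with no filter on low counts (0.0126) called the Prf1 difference. Nkg7, a granule membrane protein, went the opposite way in the same cells, at 131 and 178 against 41.9 to 54.4 CPM in CD4 cells and 326 to 449 against 189 to 393 CPM in CD8 cells (1.72 and 0.50, difference 1.22, 0.45 to 1.99, adjusted p = 0.676), a difference that edgeR called with no filter (0.0152). Its CD8 rise was called without CD8+CD127+PD-1- replicate 3 (0.0179). The granzyme Gzmk rose in CD4 cells from 1.38 to 2.42 up to 11.5 and 9.86 CPM, and in CD8 cells the groups overlapped at 71.5 to 149 against 21.6 to 85.3 CPM. Its CD4 call was lost by limma-voom (adjusted p = 0.144), without CD4+CD127-PD-1+ replicate 1 (0.0643) and without CD4+CD127+PD-1- replicate 2 (0.061), and a CD8 call was gained with no filter (0.0127) or without CD8+CD127+PD-1- replicate 3 (0.0181). The chemokine genes Ccl3 and Ccl4 rose in both lineages, by 2.77 and 1.80 in CD4 and by 2.14 and 1.18 in CD8 cells. The Ccl4 calls were lost without CD4+CD127-PD-1+ replicate 1 in CD4 cells (0.0602) and without CD8+CD127-PD-1+ replicate 2 in CD8 cells (0.0541). CD8 calls were 8 without CD8+CD127+PD-1- replicate 3, the library with high cell cycle counts, and 1 without CD8+CD127-PD-1+ replicate 2. Higher calls in CD4 and CD8 cells were 10 and 5 with no filter and 8 and 5 by DESeq2. CD4 calls were 3 without CD4+CD127-PD-1+ replicate 1, and the median difference of the list, 0.39, ran from 0.08 to 0.64 over libraries left out.

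**Figure D5:**
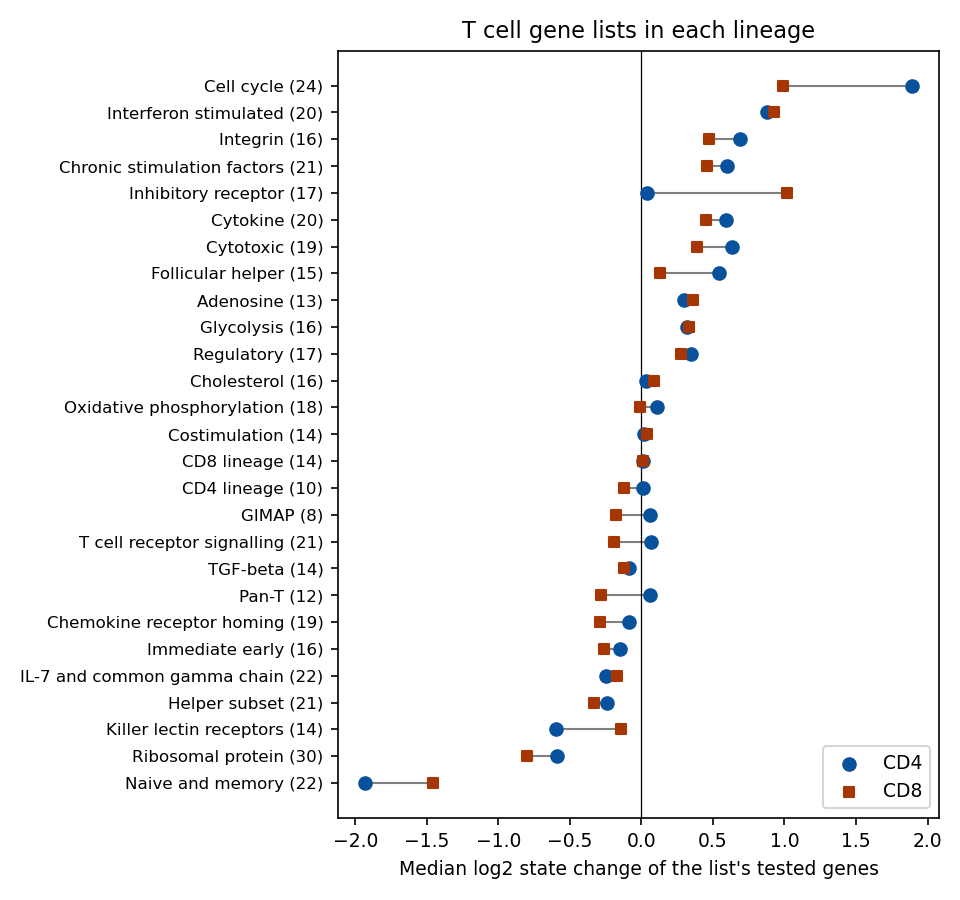
Median log2 state change of 27 T cell gene lists in CD4 (circles) and CD8 cells (squares), with the number of tested genes in brackets. Most pairs lie close together, and the widest gaps are those of the inhibitory receptor list (0.04 and 1.02) and the cell cycle list (1.89 and 0.99).

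Further genes had a small unadjusted p for the difference and were chosen after their values were seen. The filtered edgeR fit called none of Cd8b1, Il1rl1, Ccnd2 and Cx3cr1, while edgeR with no filter on low counts called all 4 (adjusted p 2.79e-05, 0.000169, 0.0264 and 7.88e-05 in that order), as did DESeq2 (0.021, 4.28e-05, 0.000613 and 0.000241). Cd8b1 encodes the beta subunit of the CD8 coreceptor. In CD4 cells it lay at 5.98 and 1.75 CPM against 60.7, 20.7 and 30.1 CPM, while the CD8 groups overlapped at 310 to 444 CPM (difference -3.05, 95% interval -4.37 to -1.74, adjusted p = 0.313). Il1rl1, the interleukin-33 receptor of regulatory and type 2 cells, measured 21 and 21.2 against 32.1 to 50.9 CPM in CD4 cells and 4.16 to 8.78 against 0.97 to 2.27 CPM in CD8 cells (state changes -0.92 and 1.82, adjusted p of the difference 0.222). Ccnd2, a cyclin of the G1 phase, showed a small but tight difference of 0.80 (0.48 to 1.12, adjusted p = 0.24), at 311 and 270 against 217 to 242 CPM in CD4 and 145 to 156 against 189 to 220 CPM in CD8 cells. Cx3cr1, the fractalkine receptor of cytotoxic T cells and of macrophages, rose by 4.73 in CD4 and 2.06 in CD8 cells (difference 2.68, 1.54 to 3.82, adjusted p = 0.312), from 2.33 to 3.07 and from 12.2 to 26.5 CPM.

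Tnf, an inflammatory cytokine, measured 111 and 101 against 75.0 to 116 CPM in CD4 cells and 67.3 to 74.9 against 32.8 to 41.2 CPM in CD8 cells (0.07 and 0.96, difference -0.88, 95% interval -1.40 to -0.37, adjusted p = 0.586). Tnfsf8, the CD30 ligand, measured 39.3 and 97.7 against 48.8 to 114 CPM in CD4 cells and 6.2 to 11 against 36.3 to 52.1 CPM in CD8 cells. It fell by 2.39 in CD8 cells (adjusted p = 0.00236) and changed by -0.07 in CD4 cells. The difference of 2.32 (1.07 to 3.57) was not called by the filtered edgeR fit (adjusted p = 0.545) but was by DESeq2 (0.0162) and with no filter (0.00107). Uqcrc1, a subunit of the respiratory chain, shows how a large difference can rest on 1 library. The CD4+CD127-PD-1+ libraries held 18.7 and 552 CPM, and all others 17.0 to 38.3 CPM (difference 4.44, adjusted p = 0.569, and 0.000225 with no filter), and without the library at 552 CPM its CD4 state change was 0.03.

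Genes of other cell types moved with the states, and their part in the T cell results was not tested. Over all tested genes 6.81% were called higher and 4.87% lower in CD4 cells, and 9.05% and 6.56% in CD8 cells. Of 22 macrophage genes 21 were higher in both arms, against 4.55% of all tested genes (medians 5.20 and 5.03, median difference -0.09). Csf1r, the macrophage growth factor receptor, measured 302 and 142 against 2.23 to 7.29 CPM in CD4 cells and 116 to 285 against 2.91 to 12.1 CPM in CD8 cells. Plasmacytoid dendritic cell genes were lower in both, 9 of 15 in CD4 and 7 in CD8 cells, with Siglech, their lectin, at 5.39 and 32.5 against 188 to 411 CPM and at 6.05 to 20.1 against 102 to 289 CPM. The dendritic cell list, which holds class II genes, summed to 10400 and 3630 against 925 to 2470 CPM in CD4 cells and to 6960 to 11600 against 952 to 3910 CPM in CD8 cells. Of its 13 genes 5 were higher in CD4 and 6 in CD8 cells (medians 1.36 and 1.01). The CD4 calls were 0 without CD4+CD127-PD-1+ replicate 1 or CD4+CD127+PD-1- replicate 2 or 3. The CD8 calls were 3 without CD8+CD127-PD-1+ replicate 1 or 2, 1 without its replicate 3 and 0 without CD8+CD127+PD-1- replicate 2. Neutrophil genes were higher in 1 of 10 cases in CD4 and 7 in CD8 cells (median difference -1.92), where leaving out a library gave 4 to 9. The B and plasma cell list had 5 of 14 genes higher in CD8 cells and 1 lower in CD4 cells (median difference -1.64; 0 to 9 genes higher in CD8 cells over libraries left out), with sums of 647 to 987 CPM in CD8+CD127-PD-1+ and 215 to 544 CPM in all other libraries. The CD4 calls of the neutrophil and B cell lists lay near the shares of all tested genes. Kidney tubule genes summed to 21.9 to 329 CPM with 0 of 13 called in either arm by edgeR. Macrophage sums thus overlapped between the lineages, while B cell sums were higher in CD8+CD127-PD-1+ libraries. Neutrophil sums stood out in replicates 2 and 3 of that group (259 and 332 CPM). Its replicate 1 (49 CPM) lay near the CD4+CD127-PD-1+ libraries (47.7 and 36.2 CPM). In bulk samples a change in the share of a cell type and a change of RNA per cell cannot be told apart.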

How the data were processed

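RNA-seq counts of 11 libraries from sorted kidney T cells were used, with groups taken from the sample titles. The authors deposited whole-number read counts per gene, made with STAR and featureCounts on GRCm38 per the submitters' processing notes. Versions, annotation and strand setting were not given in the sources used here, so reads of overlapping or antisense genes cannot be told apart, and genes with close copies, ribosomal protein genes among them, are uncertain. Per the labels, 2 ng of RNA was amplified by single primer isothermal amplification and read as 75-base single reads. Without UMIs, counts are not independent molecules. Of the deposited columns, 1 matched no label and was not used.

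Counts were fitted in R 4.3.3 with edgeR 4.0.16 (filterByExpr, TMM, quasi-likelihood test) with 4 group means, which share an estimate of the spread (common biological coefficient of variation 0.244). P values were adjusted over 16365 genes by the Benjamini-Hochberg method at 0.05. CPM use TMM-scaled totals, and 95% intervals come from the model's standard errors. The fit was also run on counts simulated from its own means and spread with independent libraries. Such a run cannot test pairing of libraries, RNA of other cells or single outlying libraries. Gene positions come from GENCODE M21 (GRCm38) and upstream sequences from RefSeq (GRCm38.p6).

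The named genes were Nt5e and the sort genes, all called differences, the 8 largest shared changes in each direction whose average log2 CPM reached 4, and opposite changes. Some genes that these rules or the lists would name are not reported here. Other genes are examples, picked with their values known, from the 37 lists (27 of T cell programmes, 10 of other cells; 526 of 527 genes in the table). The comparison, lists and rules were chosen with earlier results of these data known. Alternatives were other scaling (RLE), no filter or a stricter one, DESeq2 1.42.0, limma-voom (limma 3.58.1), no mitochondrial genes, thinned counts, replicate blocks and each library left out. P values measure only the spread between these pools.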

Additional observations from a re-analysis of the deposited data

Results flagged for a closer look

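Nt5e stood out because the test of the difference itself passed: its state change in CD4 cells exceeded that in CD8 cells by 1.94 on the log2 scale (SE 0.23, 95% interval 1.44 to 2.45, edgeR adjusted p = 0.0406). All 3 CD8+CD127-PD-1+ libraries lay at 15.7 to 19.8 CPM and the other 8 libraries at 62.3 to 86.1 CPM. The call was kept in 11 of 20 alternative fits.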

How the results depend on the processing

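Every alternative kept the sign of the Nt5e difference. With the title numbers as a replicate block it was 1.97 (adjusted p = 0.101) and with the numbers in the sample descriptions 1.95 (0.234), and over the libraries left out in turn it ran from 1.85 to 2.11. Calls of the difference, higher and lower, numbered 27 and 58 without a filter and 20 and 40 by DESeq2. They numbered 0 and 0 with the title block, 0 and 1 (St8sia6) with the description block, and 0 to 2 and 0 to 4 over libraries left out. Opposite changes numbered 9 without a filter, 2 with a stricter filter, 7 by DESeq2, 2 by limma-voom, 2 and 3 with the blocks in that order, and 0 to 3 over libraries left out. Shared changes numbered 64 higher and 153 lower at a bound of 1.5-fold, and 65 to 291 and 117 to 284 over libraries left out. The state changes gave 554 to 1261 higher and 374 to 790 lower calls in CD4 and 861 to 1572 and 614 to 1127 in CD8 cells over libraries left out. These fits hold fewer samples, and the cause of the other shifts was not tested. Where a library left the CD4+CD127-PD-1+ group with 1 sample, it was assumed to vary like the other groups.

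The numbers were not taken as pairs. Same-numbered libraries of different groups had deviations that correlated between 0.00109 and 0.325 for description numbers (10 of 12 pairs over 0.1) and between -0.209 and 0.318 for title numbers (7 of 15). Of 11 libraries, 8 and 6 correlated best with a library of their own number in another group. How many would do so without pairing was not counted. Whether same-numbered libraries came from the same pool of mice was not tested. The Nt5e difference, counted apart, lost its call in 9 alternatives. Over all other results of genes named in the text and all alternatives, 73 calls were lost and 63 gained. A further 3681 kept their status, which includes results called in neither fit, so 3681 is no count of calls kept. No called gene changed sign. The blocks cost the CD4 calls of Adora2a (0.0509), Cd96 (0.0516), Gcnt2 (0.0646) and Uqcrc1 (0.0505) by title number, and the CD8 calls of Ccnd2 (0.0515) and Cd96 (0.0587) by description number. They gained the CD8 call of Mki67 (0.0214) by title number and the CD4 call of Ctla4 (0.0349) by description number. Of the 522 shared genes, 514 were shared under RLE scaling, 518 by DESeq2, 485 by limma-voom, 471 in thinned counts and 169 to 437 over libraries left out. Recounts of the lists and the 1.5-fold bound were added after seeing the data. With 2 libraries in a group, differences near the median standard error of 0.40 cannot be called, and much larger ones were missed too. The filtered edgeR fit did not call Gcnt2 (-3.40, SE 0.56, adjusted p = 0.207), Cx3cr1 (2.68, SE 0.52, 0.312) or Ccnd2 (0.80, SE 0.15, 0.24).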
